A study of Caenorhabditis elegans with 3 samples.

Results

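The sites described here are the LET-418 binding sites in the central, low-recombination part of chromosome V of Caenorhabditis elegans. Sequencing of immunoprecipitated chromatin (ChIP-seq) located them in wild-type N2 larvae of the L3 stage, grown at 20 °C as a mixed population of males and hermaphrodites. A site was counted when it was a peak of the authors' combined list on V with its midpoint above position 5897000 and at or below 16550000 (WormBase WS220), and the peak score played no part in the choice. This gave 772 of the 9187 combined peaks, or 8.40%, and 772 of the 1380 combined peaks on V, or 55.9%. The other 608 peaks on V, to the left and right of these limits, are called the arms below. The 2 ChIP replicates, precipitated with a rabbit polyclonal antibody (SDQ3861, affinity-purified), had 1 deposited peak list each. The library of input DNA was not analysed here. Separate cultures are not stated for the replicates, so the spread between them may be technical. Chromatin came from whole larvae, so a peak is an average over all cell types.

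LET-418 is a worm homologue of Mi-2, a chromatin-remodelling ATPase that uses ATP to move or evict nucleosomes. It acts in the NuRD complex, with histone deacetylase subunits, and in the MEC complex with the zinc-finger protein MEP-1, and it is known for keeping germline genes silent in the soma and for roles in vulval and larval development. Worm autosomes have centres that recombine rarely and carry many broadly used genes, between arms that recombine often and carry more repeats. No genome or annotation of the WS220 build was used here, so sites are given by position, with no gene name and no sequence.

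Density along the centre was uneven, and the 3 lists followed the same course. The centre spans 10.7 Mb, which is 51.0% of V from position 1 to the last peak end. It held 72.5 combined peaks per Mb, 120 per Mb in replicate 1 and 85.6 per Mb in replicate 2, a mean of 103 ± 24.4 per Mb over the replicates (SD, n = 2). Read counts are not part of these lists, so the depth behind the densities is unknown, and more peaks in one list cannot be told apart from deeper sequencing or stronger enrichment. In steps of 500 kb from the lower limit there were 21 full bins, with 6 to 69 combined peaks and a median of 35. The replicate 1 list held 19 to 107 peaks per bin and the replicate 2 list 12 to 70.

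**Figure D1:**
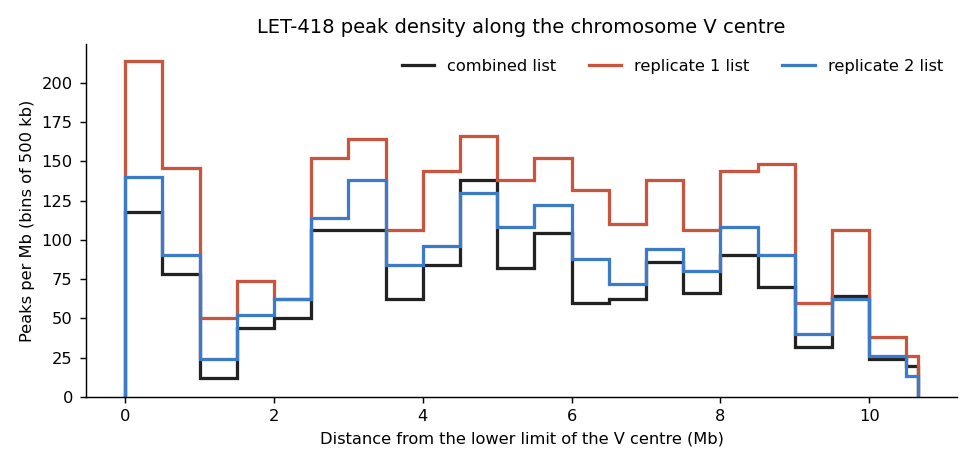
Peaks per Mb in bins of 500 kb (y axis) against the distance from the lower limit of the V centre in Mb (x axis; the last bin is 153 kb long), with 1 line for each list. All 3 lines are high in the first bin and in the bin that starts at 4.5 Mb, and dip in the bin that starts at 1 Mb and in the bins that start at 9 and 10 Mb.

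The densest full bin of the combined list lay near the middle, from 10397001 to 10897000, with 69 combined peaks, 83 in replicate 1 and 65 in replicate 2. The next was the first bin, from 5897001 to 6397000, with 59 combined peaks. It was the densest bin of both replicates, at 107 and 70 peaks. Bins from 8397001 to 8897000 and from 8897001 to 9397000 held 53 combined peaks each.

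The poorest full bin lay only 1 Mb inside the lower limit, from 6897001 to 7397000. It had 6 combined peaks, 25 in replicate 1 and 12 in replicate 2. The bin from 15897001 to 16397000, at the upper end, had 12 combined peaks, 19 in replicate 1 and 13 in replicate 2. The bin from 14897001 to 15397000 had 16, with 30 and 20 in replicates 1 and 2. The richest and the poorest full bin thus differed 11.5-fold in combined peaks.

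Across the 21 full bins the peak counts of the replicates went together, with Spearman's rho 0.95 and Pearson's r 0.95. This describes neighbouring bins of a single chromosome, which share genome sequence and mappability and are not independent. Replicate 1 held more peaks in 20 of 21 bins, and the bin from 7897001 to 8397000 held 31 in each list. The ratio of replicate 1 to replicate 2 ran from 1 to 2.08, with a median of 1.46, and was highest in the poorest bin. Cut into 3 parts of 3.55 Mb, the centre held 74.3 combined peaks per Mb on the left, 83.4 in the middle and 59.7 on the right.

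The V centre was sparser than the rest of the genome in each list, and its relation to the arms of V depended on the arm and on the replicate. In the combined list the density was 72.5 per Mb in the V centre, against 94.0 per Mb in all other sequence, a ratio of 0.771. The same ratio was 0.723 in replicate 1 and 0.861 in replicate 2. Against both arms of V together the ratio was 1.22 (72.5 against 59.4 per Mb) in the combined list, 1.03 (120 against 117 per Mb) in replicate 1 and 1.47 (85.6 against 58.2 per Mb) in replicate 2.

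The arms were unlike each other. The left arm held 47.3 combined peaks per Mb and the right arm 76.0, so that the centre had 1.53 times the density of the left arm and 0.954 times that of the right arm. The centre was denser than the left arm in replicate 1 (120 against 99.2 per Mb) and in replicate 2 (85.6 against 47.0 per Mb). Against the right arm it was lower in replicate 1 (120 against 140 per Mb) and higher in replicate 2 (85.6 against 73.4 per Mb). With 1 chromosome and 2 lists, none of these ratios was tested.

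The stretches at the same relative position on the other autosomes, from 28.2% to 79.3% of each chromosome's span, gave a further comparison. The V centre held 72.5 combined peaks per Mb, against 109 on I, 100.5 on II, 105 on III and 71.8 on IV. It was thus near IV and below I, II and III. In replicate 1 it held 120 per Mb, against 120 on IV and 159 to 175 on I, II and III. In replicate 2 it held 85.6 per Mb, against 83.5 on IV and 111 to 124 on I, II and III.

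Most V centre sites were narrow. Combined peaks there had a median width of 234 bp (quartiles 179 and 356 bp) and ran from 146 to 2401 bp. The median was 227 bp on the arms and 229 bp over all other combined peaks, so the centre differed from them by 7 and 5 bp. In replicate 1 the median was 234 bp in the centre and 225.5 bp on the arms, and in replicate 2 it was 254 bp in the centre and 238 bp on the arms. The centre thus had a larger median than the arms in each list, and the difference was not tested. Medians on the matched stretches of I to IV were 229 to 234 bp in the combined list. They were 221 to 236.5 bp in replicate 1 and 251 to 265 bp in replicate 2, so the centre lay within their range in each list. Of the 772 peaks, 289 (37.4%) were under 200 bp, 96 (12.4%) over 500 bp and 16 (2.07%) over 1 kb. All 772 together covered 243 kb, or 2.28% of the centre, against 1.42% of the left arm, 2.63% of the right arm and 2.87% of all other sequence.

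The 16 peaks over 1 kb were all found in both replicates, against 94.0% of all members and 99.5% of those of 357 to 2401 bp. Of the 16, 8 lay in stretches of at least 5 peaks and 1 stood alone. The widest, from 6227676 to 6230076, measured 2401 bp, and its partners measured 2946 bp in replicate 1 and 3460 bp in replicate 2. The second, from 6223982 to 6226164, lay 1.51 kb to its left in the same stretch, measured 2183 bp and overlapped 2 peaks in each replicate. The third ran from 13788282 to 13790301 (2020 bp), with partners of 2012 bp in replicate 1 and 2442 bp in replicate 2.

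Next in width, the peak from 7727784 to 7729698 measured 1915 bp and stood 7.18 kb to the right of a long empty gap. The peak from 10716303 to 10718028 measured 1726 bp, with a partner of 1826 bp in replicate 1. In replicate 2 it lay under a peak of 4559 bp, the widest of any list in the centre. The peak from 7443255 to 7444715 measured 1461 bp and was the only one over 1 kb that stood alone, with partners of 1623 bp in replicate 1 and 1599 bp in replicate 2.

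**Figure D2:**
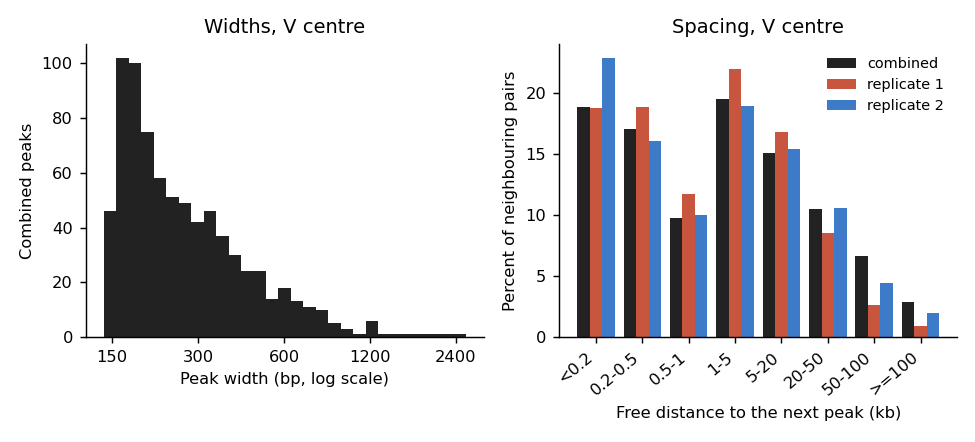
Left, the number of combined peaks of the V centre (y axis) by width in bp (x axis, log scale), with most peaks between 146 and 356 bp. Right, the percent of neighbouring pairs of peaks (y axis) by the free distance between them in kb (x axis), with a bar for each list; the classes under 0.2 kb and from 1 to 5 kb each hold 18.7 to 22.8% of the pairs in every list.

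Free distances between neighbours ran from under 200 bp to over 100 kb, with every class between them filled. The median distance between neighbouring midpoints was 1638 bp, while the mean was 13.7 kb. The median was 1397 bp in replicate 1 and 1558 bp in replicate 2 (1477 ± 113 bp, SD, n = 2). The arms had a median of 1785 bp in the combined list, with 2378 bp on the left arm and 1626 bp on the right. It was 1565.5 bp over all other combined peaks, 1287 to 1470 bp on the matched stretches of I, II and III, and 1913 bp on that of IV. The centre was thus more widely spaced than I, II and III in the combined list. Of the 771 neighbouring pairs, 145 (18.8%) were separated by under 200 bp of free sequence, 131 by 200 to 500 bp and 75 by 500 bp to 1 kb. The largest class, 150 pairs (19.5%), was 1 to 5 kb apart, 116 pairs were 5 to 20 kb apart and 81 were 20 to 50 kb apart. At the other end, 51 pairs were 50 to 100 kb apart and 22 were at least 100 kb apart.

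Peaks less than 1 kb apart were joined into stretches. Of the 772 peaks, 495 (64.1%) fell into 144 stretches of at least 2 peaks, and 277 (35.9%) stood alone. Replicate 1 alone gave 237 such stretches and replicate 2 alone 172, with 67.8% and 67.7% of their peaks. In the combined list the share in stretches was 63.0% on the arms, 57.7% on the left and 67.5% on the right, and 66.4% over all other combined peaks. Pairs made up 79 of the 144 stretches, 25 held 3 peaks, 16 held 4 and 24 held 5 or more. Those 24 stretches took 198 peaks (25.6% of the members) but only 127 kb, or 1.19% of the length of the centre. The share of peaks in stretches of that size was 25.6% in the centre, against 19.9% on the arms, 25.7% over all other combined peaks and 23.6 to 32.1% on the matched stretches of I to IV. It was 30.2% in the centre against 29.5% on the arms in replicate 1, and 29.2% against 22.0% in replicate 2. Within stretches, neighbouring midpoints were a median of 615 bp apart (quartiles 439 and 893 bp). A stretch had a median length of 1322 bp.

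**Figure D3:**
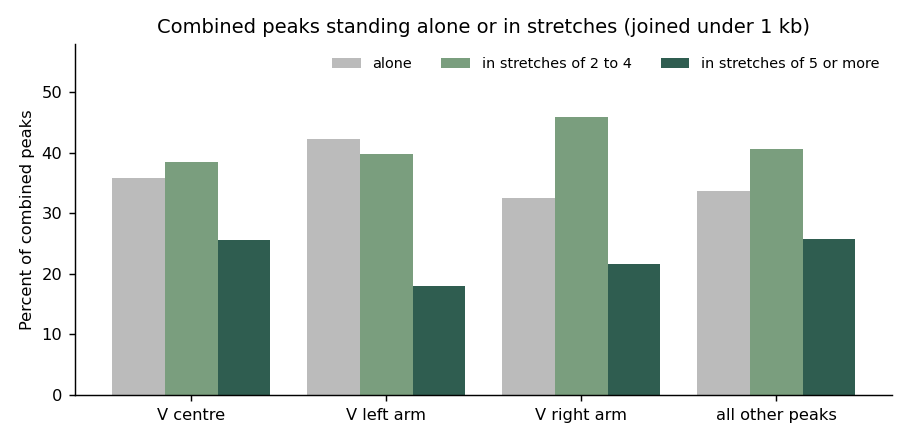
Percent of combined peaks (y axis) that stood alone, lay in stretches of 2 to 4 peaks, or lay in stretches of 5 or more, for the V centre, the left and right arms of V and all combined peaks outside the V centre (x axis). In the V centre 35.9% stood alone and 25.6% lay in stretches of 5 or more, against 42.3% and 17.9% on the left arm.

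The stretch with most peaks in the combined list ran from 10715346 to 10728065. It held 18 peaks over 12.7 kb, all of them present in both replicates. Its peaks covered 71.5% of its length, and they ranged from 149 to 1726 bp in width. The replicates drew the same ground with fewer and broader peaks. Replicate 1 had 13 peaks there, 1 of them 2601 bp wide (10721571 to 10724171) and overlapping 5 combined peaks. Replicate 2 had 11, of which a peak from 10715643 to 10720201 overlapped 4 combined peaks and a peak from 10721254 to 10724223 overlapped 6. The covered length in the replicates was closer than the number of peaks, at 11069 bp in replicate 1 and 11038 bp in replicate 2.

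**Figure D4:**
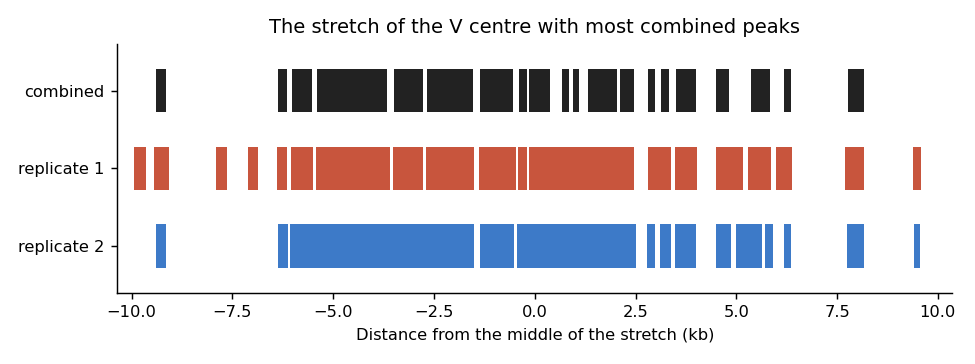
Peaks of the combined list, replicate 1 and replicate 2 (rows) around the stretch with most combined peaks, drawn to scale against the distance from its middle in kb (x axis). The 18 combined peaks correspond to 13 peaks in replicate 1 and 11 in replicate 2, some of which run across several combined peaks.

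The second stretch, from 6220860 to 6234273, was the longest, at 13.4 kb, and held 15 peaks, including the 2 widest of the centre. The replicate lists gave it nearly the same limits, with 15 peaks from 6220863 to 6234944 in replicate 1 and 15 peaks from 6220800 to 6234958 in replicate 2. It gave 15 of the 59 combined peaks of the first bin. Between 10465610 and 10475346 lay 14 peaks over 9.74 kb, 240.0 kb to the left of the stretch of 18.

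The stretch from 11529320 to 11536214 also held 14 peaks, over 6.90 kb, and these were narrower, with a median of 206 bp. Further right, the stretch from 12532337 to 12540624 held 12 peaks, covered 72.0% of its 8.29 kb. The stretch from 9085714 to 9094438 held 11 peaks, of which 10 were found in both replicates. The replicate lists ranked other ground highly as well: from 11072232 to 11084154 replicate 1 joined 17 peaks, and from 11073510 to 11084508 replicate 2 joined 14, where the combined list held 12 peaks in separate smaller stretches.

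Most combined stretches overlapped a stretch in each replicate list. The combined list comes from the same 2 ChIP samples, so these shares are not an independent measure of how far the replicates share the grouping. Of the 144 combined stretches, 133 (92.4%) overlapped a stretch of at least 2 peaks in replicate 1, 129 (89.6%) in replicate 2 and 124 (86.1%) in both. In 125 stretches (86.8%) each peak was present in both replicates, as was the case in 20 of the 24 stretches of 5 or more. Of all single members of the centre, 94.0% were present in both. Of the 277 lone combined peaks, 109 (39.4%) overlapped part of a stretch in replicate 1 and 55 (19.9%) in replicate 2, and 146 (52.7%) were alone in all 3 lists. Replicate 1 has more peaks in the centre than replicate 2 (1279 against 912), and the part of list length in these shares was not tested.

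Long empty gaps took up much of the centre. There were 73 gaps of at least 50 kb between neighbouring combined peaks, 6.15 Mb in all, or 57.7% of the centre, and 22 of them were at least 100 kb. On the arms such gaps took 64.7% of the length (56 gaps), in all other sequence 42.7% and on the matched stretches of I to IV 28.4 to 45.9%. In replicate 1 they took 42.2% of the arms and 22.1% of all other sequence, and in replicate 2 they took 63.0% and 38.5%. In the replicate lists the centre had 45 such gaps (33.5% of its length) in replicate 1 and 58 (46.7%) in replicate 2. Many were thus empty in the combined list without being bare in the replicates. Inside the 73 gaps lay 180 replicate 1 peaks (29.3 per Mb) and 66 replicate 2 peaks (10.7 per Mb), and 43 of the 180 overlapped a replicate 2 peak. Of the 73, 17 were empty in replicate 1, 36 in replicate 2 and 14 in both.

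The longest gap of the combined list ran from 16040902 to 16273920, 233 kb, and held 3 replicate 1 peaks and 2 replicate 2 peaks. Ground near the left end was nearly as empty in the combined list, though not throughout in the replicates. The gaps from 7093741 to 7248119 (154 kb) and from 7248276 to 7434863 (187 kb) were separated by 1 peak of 156 bp that replicate 2 lacked. The left one of this pair held 12 replicate 1 and 6 replicate 2 peaks, and the right one held 1 of each. The longest gap of replicate 1 (7248268 to 7432550, 184 kb) and of replicate 2 (7224205 to 7432494, 208 kb) lay on that right-hand ground too.

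The gap from 7580684 to 7720604, 140 kb long, was empty in all 3 lists. Near the upper limit, the gap from 16370300 to 16536195 (166 kb) held 2 replicate 1 peaks and 0 replicate 2 peaks. The sixth gap, from 13201798 to 13334549 (133 kb), held 3 and 1 peaks of replicates 1 and 2. Among 213 windows of 50 kb, the combined list left 50 (23.5%) empty, replicate 1 left 28 and replicate 2 left 39, and 28 were empty in all 3 lists. Conversely, 33 windows (15.5%) held 50% of the members. Whether reads can be placed uniquely in the empty ground was not tested.

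Presence in the replicates was high, but the combined list comes from the same 2 ChIP samples. The way it was made is not stated, so the share is not an independent measure of reproducibility. Of the 772 members, 726 (94.0%, 95% Wilson interval 92.1 to 95.5%) overlapped a peak in both replicates by at least 1 bp, against 90.4% of all combined peaks. Another 37 (4.79%, 3.50 to 6.54%) had a partner in replicate 1 alone, 9 (1.17%, 0.615 to 2.20%) in replicate 2 alone and 0 in neither, as over the whole combined list. The share in both was 87.2% (84.3 to 89.6%) on the arms of V, where 12.5% had a partner in replicate 1 alone. It was 92.5% on the matched stretch of I, 92.5% on II, 92.8% on III and 94.4% on IV, so a share of this size is not particular to V. Intervals cover counting error only, and neighbouring peaks are not independent.

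The share found in both replicates ran with width and with stretch size, and these differences were not tested. By construction, a wider peak meets the rule of 1 bp more easily, and 1 broad replicate peak can be the partner of several members. In the centre, 119 combined peaks shared a replicate 1 peak with another combined peak, and 133 shared a replicate 2 peak. How much the rule adds to the order was not tested. Among the narrowest 195 peaks, of 146 to 179 bp, 84.6% (78.9 to 89.0%) were in both replicates. The share was 94.8% for 180 to 234 bp, 97.4% for 235 to 356 bp and 99.5% (97.1 to 99.9%) for 357 to 2401 bp. It was 90.3% (86.2 to 93.2%) for lone peaks, 94.9% for stretches of 2 to 4 and 98.0% (94.9 to 99.2%) for stretches of 5 or more. Lone peaks were also narrower, with a median of 204 bp, against 282 bp in stretches of 5 or more, and the part of width in this order was not tested.

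**Figure D5:**
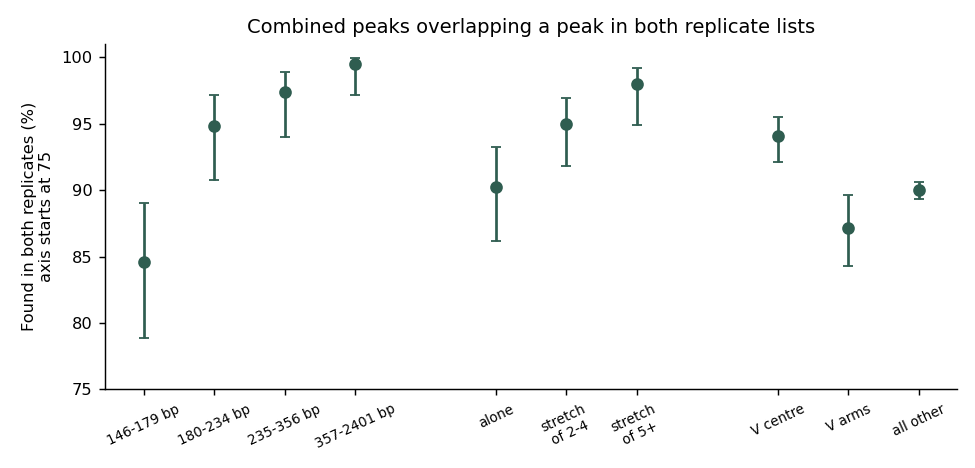
Percent of combined peaks found in both replicates (y axis, starting at 75) by width and by stretch size within the V centre, and for the V centre, the arms of V and all combined peaks outside the V centre (x axis). Points are shares and bars are 95% Wilson intervals; the share runs from 84.6% for the narrowest peaks to 99.5% for the widest.

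The 37 peaks without a replicate 2 partner had a median width of 168 bp, and 25 of them stood alone. The widest were 364 bp (9962952 to 9963315), 335 bp (16040567 to 16040901), 325 bp (15568739 to 15569063), 322 bp (6355464 to 6355785) and 270 bp (10341171 to 10341440). The first was isolated in replicate 2, whose nearest peak midpoint was 15.5 kb away. The second bordered the longest gap, and its nearest replicate 2 midpoint was 40.2 kb away. For 14 of the 37, a replicate 2 midpoint lay within 1 kb.

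The 9 peaks without a replicate 1 partner had a median width of 163 bp. The widest measured 255 bp (12161297 to 12161551) and stood alone. The next, 218 bp (9088916 to 9089133), lay inside the stretch of 11 peaks and was its only member not found in both replicates. Those of 190 bp (6998311 to 6998500), 175 bp (8424342 to 8424516) and 163 bp (13565081 to 13565243) belonged to stretches of 3, 4 and 2 peaks. For 6 of the 9, a replicate 1 midpoint lay within 1 kb.

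Where a combined peak met exactly 1 peak in each replicate, and they met no other combined peak, positions matched closely. This held for 545 members (70.6%). Midpoints of the replicates differed by a median of 18.5 bp, by 94 bp at the 90th percentile and by at most 405 bp. Both partners overlap the same combined peak by selection, which in itself keeps their midpoints near each other. How much this adds to the match was not tested. The combined peak was narrower than its replicate 1 partner at 498 sites (91.4%) and than its replicate 2 partner at 467 (85.7%). Median widths were 225 bp in the combined list, 291 bp in replicate 1 and 277 bp in replicate 2. All 545 lay between the outermost ends of their partners, and 280 (51.4%) within the part common to both. Elsewhere, 56 replicate 1 peaks and 58 replicate 2 peaks of the centre each overlapped several combined peaks, up to 5 and 6.

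The replicate lists were also read from their own side. Of 1279 replicate 1 peaks in the centre, 823 (64.3%, 61.7 to 66.9%) overlapped a replicate 2 peak, against 55.0% of all replicate 1 peaks and 46.9% (44.1 to 49.7%) of those on the arms of V. Of 912 replicate 2 peaks in the centre, 812 (89.0%, 86.8 to 90.9%) overlapped a replicate 1 peak, against 91.2% of all replicate 2 peaks and 95.8% (93.9 to 97.1%) on the arms. The centre thus had the higher share in the replicate 1 list and the lower share in the replicate 2 list. The matched stretches of I to IV did so as well, with 60.9 to 62.1% in replicate 1 and 86.1 to 88.6% in replicate 2.

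In density, replicate 1 peaks without a partner numbered 42.8 per Mb in the centre, 61.9 on the arms and 76.0 in all other sequence. Replicate 2 peaks without a partner numbered 9.39 per Mb in the centre, 2.44 on the arms and 8.52 in all other sequence. In replicate 2 the centre was thus near the rest of the genome, and the arms of V were low. Unshared peaks seldom entered the combined list. In the centre 7.68% of the 456 unshared replicate 1 peaks and 7.00% of the 100 unshared replicate 2 peaks overlapped a combined peak. Of the shared ones, 81.9% and 81.0% did. Outside the V centre the shares were 10.5% and 5.11% of unshared peaks, and 86.3% and 86.0% of shared ones. The unshared peaks of the centre had a median width of 182.5 bp in replicate 1 and 177.5 bp in replicate 2, against 284 and 269 bp for the shared ones.

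Peak scores, which are the authors' own and on a scale that is not stated, were lower in the centre than on the arms of V within each list. The median was 3.71 in the centre and 4.70 on the arms in the combined list, 6.44 and 7.12 in replicate 1, and 4.61 and 5.86 in replicate 2. The right arm had medians of 5.30, 8.65 and 7.20 in these lists, and the left arm 3.93, 6.03 and 4.92. The centre was thus below the right arm in all 3 lists and below the left arm in the combined list and replicate 2. Medians on the matched stretches of I to IV were 3.62 to 3.84, 6.06 to 6.46 and 4.92 to 4.95 in these lists. Over all other peaks they were 3.93, 6.64 and 5.18. The centre lay within the range of the matched stretches in the combined list and replicate 1, and below it in replicate 2. In the combined list 9 of the 772 members were at the highest score, 9.03. On the arms 39 of 608 peaks were, 33 of them among the 329 peaks of the right arm. Over all other combined peaks the count was 237 of 8415. The matched stretches of I to IV had 5 to 12 such peaks, out of 640 to 836 each. Ranked within its list, the median peak of the centre stood at the 45.0th percentile of the combined list, the 47.9th of replicate 1 and the 43.8th of replicate 2. Members of stretches of 5 or more and lone members had like scores, with medians of 3.73 and 3.68.

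Ground was sparse on both sides of the lower limit and outside the upper limit, but members lay close inside the upper limit. The first members above the lower limit began at 5963650, 5964823 and 5991442, the nearest with its midpoint 66.9 kb inside. The nearest peaks outside began at 5852196, 5851626 and 5850383, the first of them 44.7 kb from the limit. At the upper limit the last members began at 16547241, 16537893 and 16536196, the nearest 2.58 kb inside. Outside it the next peaks began at 16592182, 16593568 and 16594043, the nearest 42.3 kb away. All of these were present in both replicates, except those at 16536196 and 16593568, which replicate 2 lacked.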

How the data were processed

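Binding was measured in 2 ChIP samples and 1 input, of which the input was not analysed here. Reads were aligned with BWA to ce10, per the submitters' processing notes. Peaks were called with MACS on WormBase WS220, per the file headers. The authors deposited 1 list per replicate and 1 combined list, with a start, an end and a peak score per row. Versions, filters, threshold, use of the input and the way the replicates were combined are not given in the labels or headers. Without read counts, the depth is unknown. Coordinates are 1-based positions deposited by the authors; other quantities were computed from them.

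Peaks were assigned to the centre by midpoint. Partners shared at least 1 bp. Peaks under 1 kb apart were joined. The length of V was taken as 20.9 Mb, up to the end of the last deposited peak. Shares have Wilson intervals at 95%. Peaks are not replicates, so no test of chance was made. Named sites were the 6 stretches with most peaks, the 6 widest peaks, the 6 longest gaps, the 3 richest and 3 poorest bins of 500 kb, the 3 peaks nearest each limit on each side, and the 5 widest peaks lacking each replicate; other regions named were chosen after their values were seen. The members and rules were chosen with earlier results of these data known. Alternatives were each replicate list in place of the combined list, peaks found in both replicates, the middle of 3 equal parts of V as the centre, covered bases, other joining and gap lengths, a reciprocal overlap of 50% and midpoints within 500 bp. The counting code was tested on simulated lists. Software was matplotlib 3.10.9, SciPy 1.17.1, pandas 2.3.3, NumPy 2.4.6 and Python 3.11.15.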

Additional observations from a re-analysis of the deposited data

How the results depend on the processing

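The centre to arm density ratio stayed above 1 in its 5 alternatives. Against the right arm alone it was 0.954 in the combined list, 0.856 in replicate 1 and 1.17 in replicate 2. The density ratio of the centre to all other sequence was 0.771, 0.723 and 0.861 in these lists, and was compared across the 3 lists only. From the peaks of either replicate alone, density was 85.6 to 120 per Mb, the centre to arm ratio 1.03 to 1.47, the median width 234 to 254 bp, the median spacing 1397 to 1558 bp, the share in stretches 67.7 to 67.8%, the number of stretches 172 to 237 and the number of gaps 45 to 58. The share in stretches was 52.7% when peaks under 500 bp apart were joined, 75.4% under 2 kb, 63.8% for peaks found in both replicates and 65.2% in the middle of 3 equal parts of V. That part is shorter, and held 47 gaps of at least 50 kb. A reciprocal overlap of 50%, stricter by construction, gave 67.0% of members in both replicates, 52.9% of replicate 1 peaks with a replicate 2 partner and 74.1% of replicate 2 peaks with a replicate 1 partner. With midpoints within 500 bp these were 92.1%, 68.3% and 92.5%. In the middle part, 68.0% of replicate 1 peaks had a partner. The cause of the other changes was not tested. Shares of overlap need both replicates, so none could be left out there. No paired analysis was possible because 1 group alone has peak lists.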
